A study of Rattus norvegicus with 8 samples.

Results

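The genes described here are the 4 that encode the subunits of the AMPA receptor, Gria1, Gria2, Gria3 and Gria4, in the lower spinal cord of rats. They were taken by Ensembl identifier, 4 of the 32883 genes in the deposited table: ENSRNOG00000045816 for Gria1, ENSRNOG00000024499 for Gria2, ENSRNOG00000007682 for Gria3 and ENSRNOG00000006957 for Gria4. The table holds identifiers alone, so the symbols are those given with the set, and they were not checked against a second source. Of the 4 genes, 2 had enough counts for a test, Gria3 and Gria4. Gria1 had 6 unique molecular identifiers (UMIs, each marking 1 captured transcript) in all 8 libraries together, and Gria2 was listed at 0 in every library.

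The 8 libraries came from Sprague Dawley rats, an outbred laboratory strain, at 23 days after a hemisection of the cord at T9, an injury that both groups carried. In 4 libraries the rats had been trained after the injury and in 4 they had not; the cord sampled lay below the injury and is described as intact. No source used here gives the kind of training, the age of the rats or how many rats went into a library, so p-values measure only the spread between these libraries, which may be technical. Libraries carry the numbers 1 to 4 in each group, and those with the same number are compared as pairs below.

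AMPA receptors are tetramers of the 4 subunits GluA1 to GluA4 and are the ion channels that carry most fast excitatory transmission between neurons of the brain and spinal cord. Which subunits assemble sets the speed and the calcium permeability of the channel. GluA2, in its RNA-edited form, keeps calcium out, and receptors without it let calcium through. In the spinal cord these receptors relay sensory input in the dorsal horn and drive motor neurons in the ventral horn.

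Libraries held between 192472 and 453390 UMIs, with 240895 to 453390 in untrained and 192472 to 400934 in trained animals. Untrained libraries together held 58.5% of the 2466500 UMIs. Levels are given in CPM, which is the count relative to the size of its library, with sizes normalised by edgeR's TMM method over the 4086 genes that passed a filter on low counts. Where a gene has 0 UMIs, up to 3 UMIs are allowed for, which is 6.66 CPM in the library with the largest normalised size and 18.4 CPM in the smallest; these limits and the intervals on single libraries cover counting error only. The method counts transcript 3′ ends, 1 UMI per captured molecule whatever the transcript's length, so levels of different genes are set side by side in CPM without scaling to length. Markers of neurons and glia were not used here, because no source at hand pairs the table's identifiers with symbols; the labelled tissue was therefore not checked against them. In whole tissue, fewer cells of a type and less RNA per cell cannot be told apart.

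**Figure D1:**
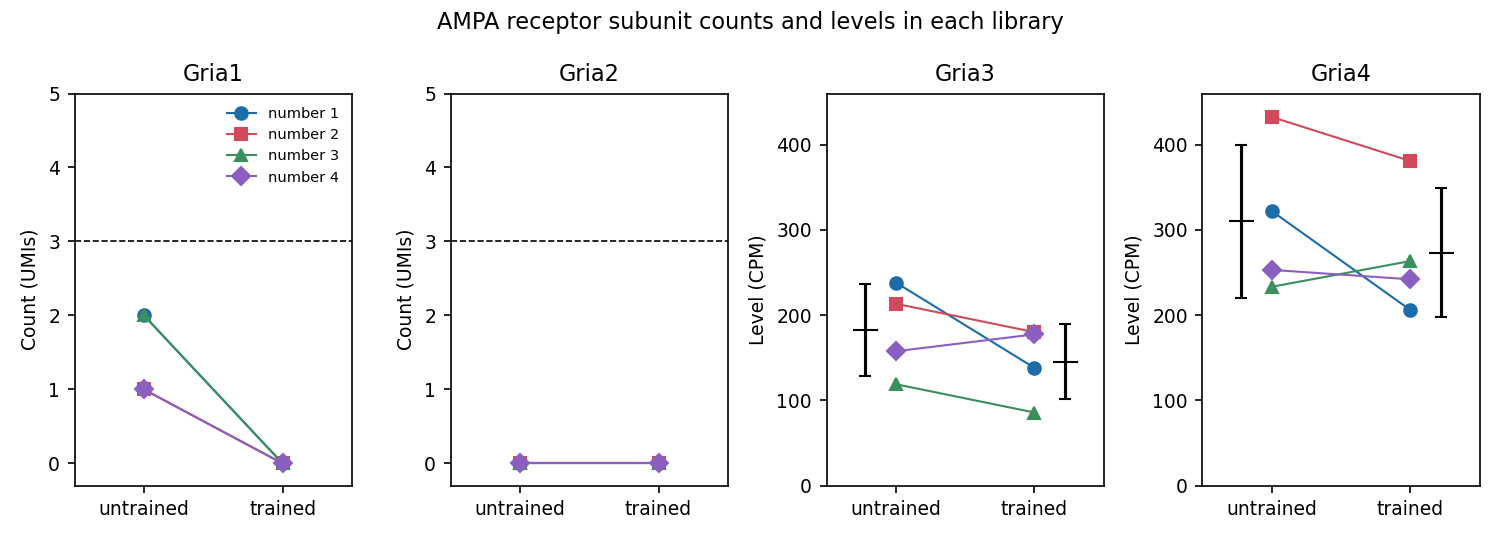
AMPA receptor subunits in each library, untrained on the left and trained on the right of each panel, with a line joining libraries of the same number. Gria1 and Gria2 are plotted as UMI counts with a dashed line at 3 UMIs, Gria3 and Gria4 as CPM with the mean and SD of 4 libraries in black. No Gria1 or Gria2 count reaches 3 UMIs, and the trained and untrained libraries overlap for Gria3 and Gria4.

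Gria4, which encodes GluA4, a subunit of channels with fast kinetics, had the highest count of the 4 genes in every library. Its mean over the 8 libraries was 292 CPM, which placed it at position 688 of the 13048 genes with any UMI, above 94.7% of them. The untrained libraries numbered 1 to 4 had 123, 152, 49 and 114 UMIs, or 322, 432, 233 and 253 CPM. The trained libraries had 82, 74, 43 and 45 UMIs, or 206, 381, 263 and 242 CPM. The 2 highest levels belonged to the libraries numbered 2, one from each group, and the lowest to trained number 1.

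Gria3, which encodes GluA3, a subunit that commonly pairs with GluA2, came second. Its mean was 164 CPM, at position 1219 of the genes with any UMI and above 90.7% of them; the median over the 4086 genes tested was 92.2 CPM. The untrained libraries numbered 1 to 4 had 91, 75, 25 and 71 UMIs, or 238, 213, 119 and 158 CPM. The trained libraries had 55, 35, 14 and 33 UMIs, or 138, 180.1, 85.8 and 178 CPM. Both libraries numbered 3 were the lowest of their group, and the 14 UMIs of trained number 3 gave a 95% exact Poisson interval of 46.9 to 144 CPM.

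Gria1 encodes GluA1, the subunit best known for activity-dependent insertion at synapses and, in the cord, for dorsal horn pain pathways. It had 2, 1, 2 and 1 UMIs in untrained libraries 1 to 4 and 0 in all 4 trained libraries. Every untrained library thus lay above every trained one, as did 1.32% of the 13048 genes with any UMI, but no library reached 3 UMIs and untrained libraries were deeper as a group. In an edgeR quasi-likelihood fit without the filter on low counts, Gria1 had an unadjusted p of 0.0256 and an adjusted p of 0.985 over 13048 genes; 0.0460% of those genes passed the adjusted threshold of 0.05, and 1.40% were lower in trained libraries at an unadjusted p under 0.05. With libraries of the same number as pairs, the edgeR adjusted p was 0.998 (unadjusted 0.114), and in DESeq2 without pairs it was 0.9997 (unadjusted 0.156). A difference in Gria1 was not detectable at this depth, and no fold is given.

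Gria2 encodes GluA2, the subunit that decides calcium entry and that most central neurons are known to express. No UMI was assigned to its identifier in any library, as for 60.3% of the genes in the table. The count says nothing on editing or splicing of the transcript, which a 3′-end count cannot show. In a 3′-end method a count also depends on reads falling inside the gene model used for counting. Whether that holds for Gria2, or for Gria1, Gria3 and Gria4, was not tested.

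The subunit mix as counted was therefore almost wholly Gria4 and Gria3. Gria4 made up 56.9%, 66.7%, 64.5% and 61.3% of the subunit UMIs in untrained libraries 1 to 4. In trained libraries it made up 59.9%, 67.9%, 75.4% and 57.7%. Its mean share was 62.3% ± 4.22 in the untrained group and 65.2% ± 8.10 in the trained group (SD, n = 4 each), which differed by 2.87 percentage points, less than the spread between libraries of either group. Within pairs the share in the trained library was higher by 2.91, 1.22 and 10.96 points for numbers 1 to 3 and differed by -3.60 points for number 4. Gria4 took more than 50% of the subunit UMIs in all 8 libraries; the lower end of the 95% exact Clopper-Pearson interval fell under 50% in 1 of them, trained number 4 (46.0% to 68.8% on 78 subunit UMIs).

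Gria3 supplied most of the remainder, with a mean share of 36.5% ± 4.49 without training and 34.8% ± 8.10 with it (SD, n = 4 each). There were 1.35, 2.03, 1.96 and 1.61 Gria4 UMIs per Gria3 UMI in untrained libraries 1 to 4. In trained libraries there were 1.49, 2.11, 3.07 and 1.36. The highest ratio came from trained number 3, the library with the fewest subunit UMIs, 57. Gria1 made up 0.850% of the 706 subunit UMIs of untrained libraries (95% exact Clopper-Pearson interval 0.313% to 1.84%). It was at 0 of 381 in trained ones, where a count of 0 allows a share of up to 0.787%, so the shares allowed in the groups overlap. For Gria2, a count of 0 allows up to 0.425% of the subunit UMIs in untrained and 0.787% in trained libraries. These shares describe the table and not the receptors at synapses, and they rest on the counts of the subunit genes as deposited.

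**Figure D2:**
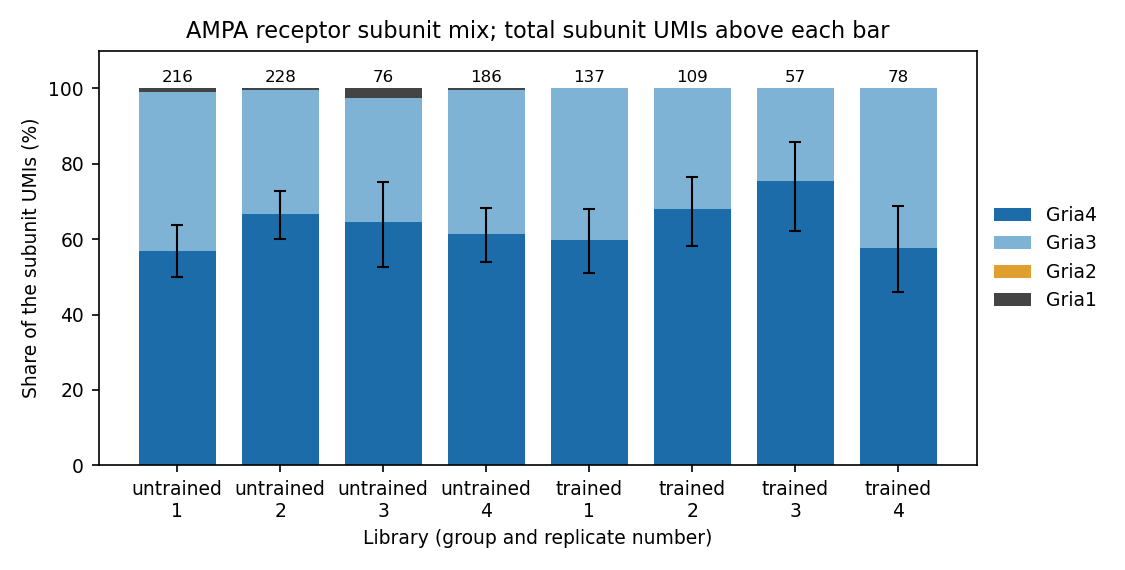
Share of each subunit in the summed UMIs of the 4 genes, by library, with the total of subunit UMIs above each bar; the bars on the boundary are 95% exact Clopper-Pearson intervals of the Gria4 share. Gria4 takes 56.9% to 75.4%, Gria3 nearly all of the rest, Gria1 appears only in untrained libraries with 1 or 2 UMIs each, and Gria2 has no segment.

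The study asked how training after the injury affects the transcriptome of the cord below it. For the AMPA receptor genes, neither of the 2 that could be tested passed the test of a difference between the groups (edgeR quasi-likelihood test, 0 of 2 past an adjusted p of 0.05). Over all 4086 genes tested, 0% passed that threshold (0 genes in edgeR and limma-voom, and 0 in DESeq2 over 13046 genes; 52 at an unadjusted p under 0.05 in edgeR, or 1.27%, 63 in DESeq2 and 57 in limma-voom). The summed level of the 4 genes was 497 ± 133 CPM without training and 418 ± 101 CPM with it (SD, n = 4 each), and the groups overlapped.

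Gria3 averaged 182 ± 53.9 CPM in the untrained and 145 ± 44.1 CPM in the trained group (SD, n = 4 each). The log2 fold change of trained over untrained was -0.34 ± 0.27 (SE, edgeR adjusted p = 0.99998, unadjusted p = 0.233). Its 95% interval ran from 0.533-fold to 1.18-fold, so a level below 0.533 of the untrained one, or above 1.18 of it, lay outside the interval. Trained libraries were lower in 3 of 4 pairs, with log2 differences of -0.76, -0.24, -0.44 and 0.16 for numbers 1 to 4. Of all genes tested, 30.9% were lower in at least 3 pairs.

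Gria4 averaged 310.2 ± 89.9 CPM in the untrained and 273 ± 75.6 CPM in the trained group (SD, n = 4 each). On the log2 scale trained minus untrained was -0.20 ± 0.25 (SE, edgeR adjusted p = 0.99998, unadjusted p = 0.421), with a 95% interval from 0.606-fold to 1.24-fold. Trained libraries were lower in 3 of 4 pairs, with log2 differences of -0.63, -0.18, 0.17 and -0.06. The pair that went the other way was number 3 for Gria4 and number 4 for Gria3, and number 1 had the largest difference for both.

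With the replicate number as a block, the log2 fold changes were -0.35 ± 0.19 for Gria3 and -0.22 ± 0.15 for Gria4 (SE, edgeR adjusted p = 0.994 for both, unadjusted p = 0.0747 and 0.163). Neither gene was called, and 0.0489% of the 4086 genes were; 4.19% had an unadjusted p under 0.05. The blocked intervals, for single genes without adjustment, ran from 0.5998-fold to 1.03-fold for Gria3 and from 0.690-fold to 1.07-fold for Gria4. They rest on pairs taken from these same data and cover only the spread between these libraries. Both estimates were negative, while the median over all genes tested was 0.01 with and without the block; 7.46% of the genes had a lower log2 fold change than Gria3 and 17.9% a lower one than Gria4 in the fit without the block.

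**Figure D3:**
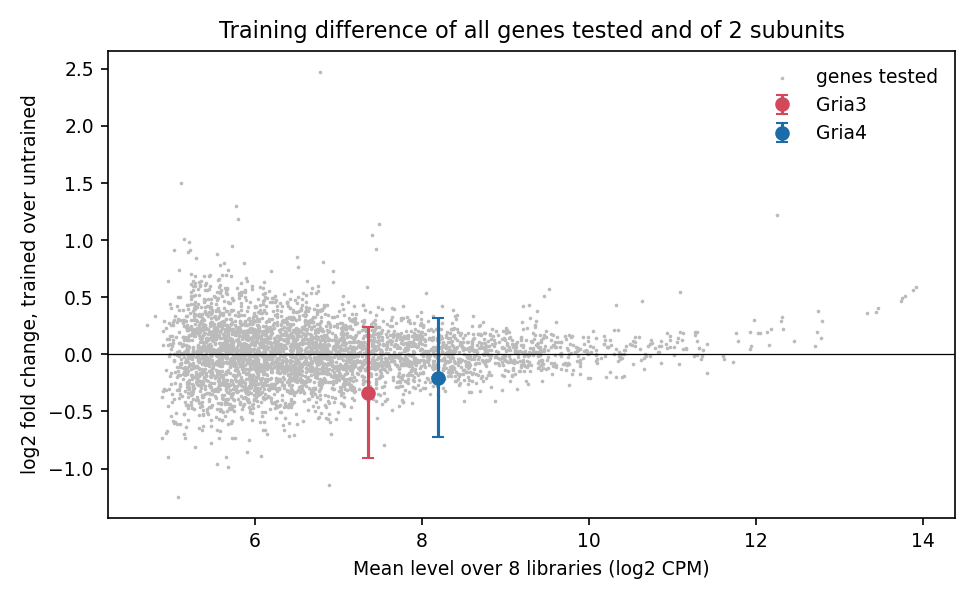
Log2 fold change of trained over untrained (edgeR, without the block) against the mean level for the 4086 genes tested, in grey, with Gria3 and Gria4 marked and their 95% intervals drawn. Both subunits lie below 0, at -0.34 and -0.20, and both intervals cross 0.

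The size of these differences varied with the libraries kept. Leaving out the highest untrained or the lowest trained library shrinks such a difference by construction. Without untrained number 2, the library with the highest Gria4 level, the Gria4 log2 fold change was -0.00086, and without trained number 1, the library with the lowest, it was -0.07. Without trained number 2 it was -0.41. For Gria3 it was -0.18 without untrained number 1, its highest untrained library, and -0.18 without trained number 3, its lowest trained one. Without untrained number 3, its lowest untrained library, the Gria3 log2 fold change was -0.48. With the block and without the pair numbered 1 it was -0.13 for Gria3 and -0.05 for Gria4, and with the block and without the pair numbered 4 it was -0.53 for Gria3. Earlier results of these data placed numbers 1 and 2 apart from numbers 3 and 4, so the comparison was also made within each set. This division is not independent of the data. Correlations across numbers reached 0.27 between 1 and 2 but only 0.057 between 3 and 4, so numbers 3 and 4 are not shown to be alike. Within numbers 1 and 2 the log2 fold change was -0.54 for Gria3 and -0.42 for Gria4. Within numbers 3 and 4 it was -0.09 for Gria3 and 0.04 for Gria4. None of these was called (edgeR, lowest adjusted p = 0.973), and the difference between the sets was not tested.

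**Figure D4:**
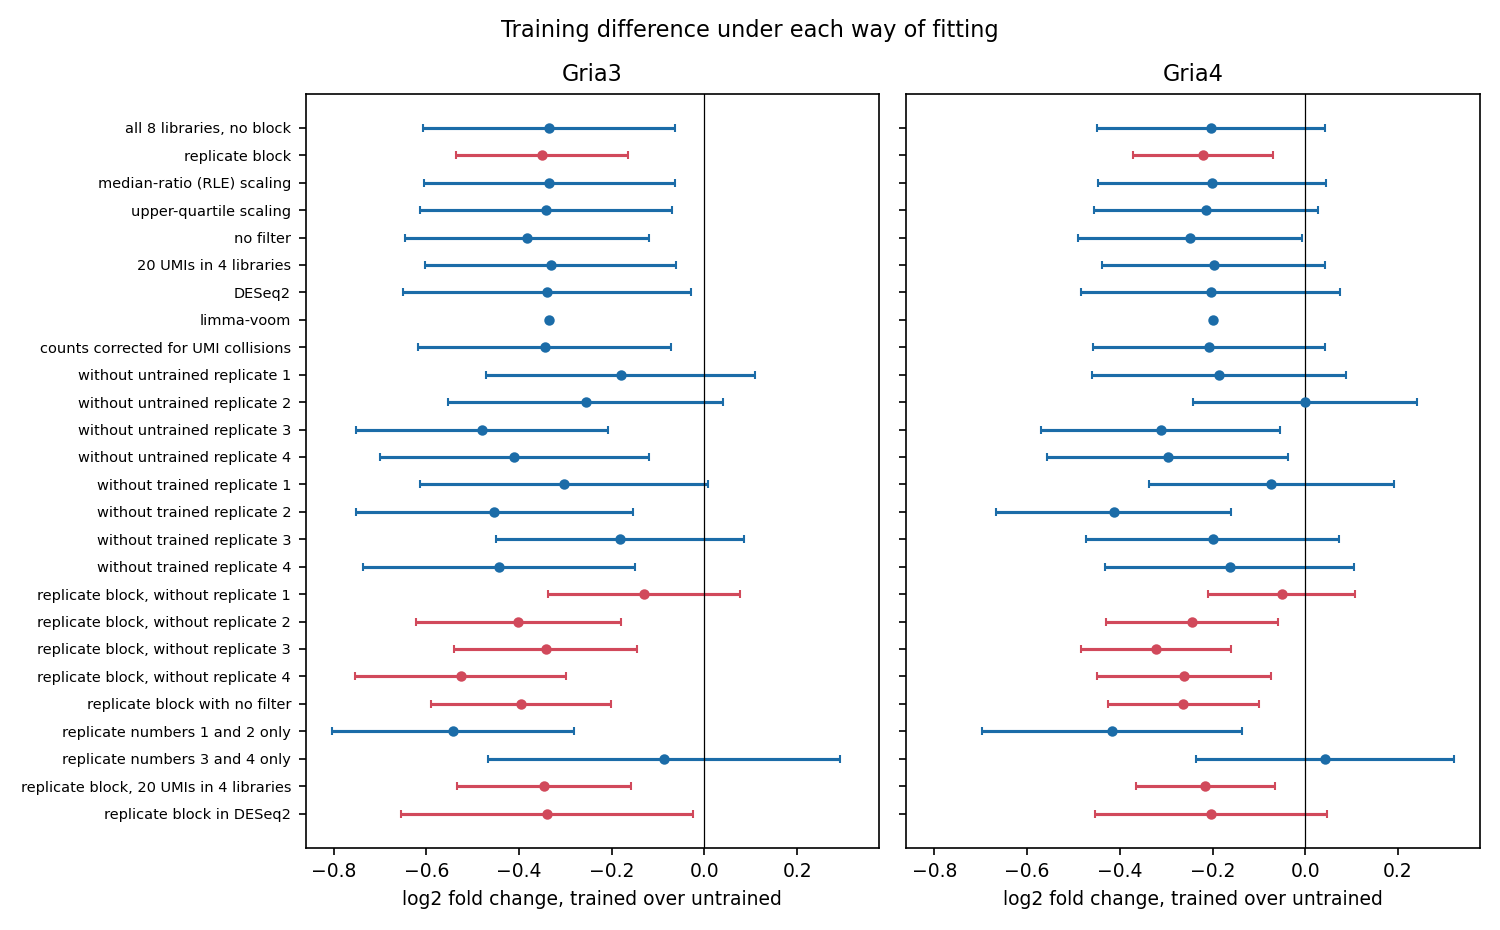
Log2 fold change of trained over untrained for Gria3 and Gria4 under each way of fitting, with fits that include the replicate block in red; bars are 1 SE, not drawn for limma-voom. Gria3 stays below 0 throughout, from -0.54 to -0.09, and Gria4 runs from -0.42 to 0.04.

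Gria4 passed a joint test of the replicate numbers with training in the model (edgeR quasi-likelihood F test on 3 coefficients, adjusted p = 0.0367). Of the 4086 genes, 16.0% did as well. The numbers were tested because libraries of the same number were seen to deviate together in these same data, so the test is not independent of them. The pair means were 264, 407, 248 and 248 CPM for numbers 1 to 4, so the pair numbered 2 stood above the others. The libraries numbered 2 had 95% exact Poisson intervals of 366 to 507 CPM untrained and 299 to 478 CPM trained. Both overlapped the interval of untrained number 1, 268 to 384 CPM. The trained one also overlapped the intervals of numbers 3 and 4, which ended at 308 and 304 CPM untrained and at 355 and 324 CPM trained. The call ended without number 2 (edgeR adjusted p = 0.952), without number 4 (0.0501) and in a likelihood ratio test in DESeq2 (0.407).

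Gria3 did not pass the same test (edgeR adjusted p = 0.103, unadjusted p = 0.0246, where 31.3% of genes had an unadjusted p under 0.05). Its pair means were 188, 197, 102 and 168 CPM for numbers 1 to 4, lowest for number 3. Whether Gria3 and Gria4 differ from each other in how they follow the number was not tested. No source used here says what the number stands for. The coefficient of variation over the 8 libraries of both groups was 30.3% for Gria3 and 27.2% for Gria4. Counting error alone would give 15.2% and 11.6%.

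By profile over the 8 libraries, Gria4 was nearer to many other genes than to Gria3, though nearer to Gria3 than to most genes. Likeness was measured as the root mean square difference of log2 CPM, each gene centred on its own mean. The 2 nearest of 4085 genes were ENSRNOG00000009896 and ENSRNOG00000047960, with differences of 0.15 each, on means of 12.5 and 187 UMIs per library. Gria3 stood at position 757 with 0.36, where the median over all genes was 0.48 and Gria4's own departure from its mean was 0.34. The 2 genes named have the smallest of 4085 differences. Counting error enters each difference, more so for the gene with a mean of 12.5 UMIs. Whether their nearness exceeds what counting error and the choice of the smallest would give was not tested. This is a description of 8 libraries that also differ in depth, and it carries no test.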

How the data were processed

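CEL-Seq2, a 3′-end method with UMIs, was run on flash-frozen cords and sequenced on a HiSeq1500, per the labels' protocols. HISAT2 2.0.4, HTSeq 0.6.0 and build Rnor_6.0 are named in the submitters' processing notes; no source used here gives the UMI length or how UMIs were collapsed. The authors deposited raw UMI counts of 32883 Ensembl genes, without normalisation. None of the identifiers (0) matched the RefSeq table at hand (GRCr8), so the lists of AMPA receptor partners and of cell type markers could not be applied.

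In R 4.3.3, filterByExpr of edgeR 4.0.16 (minimum count 10, 4 libraries) kept 4086 genes. Trained and untrained libraries were compared by edgeR's quasi-likelihood test, trained minus untrained, without covariates, with TMM scaling and Benjamini-Hochberg adjustment over all genes tested. Standard errors are the log2 fold change over the square root of F. Log2 CPM in pair differences and profiles adds a prior count of 2. DESeq2 1.42.0 and limma 3.58.1 were alternatives. Scripts were tested on simulated data. All 4 genes were named whatever their values. The 2 nearest profiles were taken for the one with the highest mean count. Members, lists and tests were chosen with earlier results of these data known.

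Libraries of one group differed by more than sampling noise (chi-square 2.83 to 5.61 times its degrees of freedom over 12 pairs), so none was merged. Same-numbered libraries deviated together from their group means (correlations of 0.34, 0.34, 0.30 and 0.53 across 4086 genes, which are not independent replicates), each above 0.1, and were taken as pairs from the data, since the labels do not explain the number. The highest correlation with a library of another number was 0.27 for numbers 1 and 2, also above 0.1, and 0.057 for numbers 3 and 4, so the criterion alone does not set the pairs 1 and 2 apart.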

Additional observations from a re-analysis of the deposited data

Results flagged for a closer look

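Dixon's test at the 95% level was applied to 10 groups of 4 values (Gria3 and Gria4 levels, their sum, the Gria4 share and the library totals), and by chance it marks about 1 group in 20. It marked 1, the trained library totals, in which number 1 held 400934 UMIs and the gap to its nearest neighbour was 0.883 of the group's range. That library had the lowest Gria4 level of all 8, 206 CPM on 82 UMIs. Without it the log2 fold change was -0.07 for Gria4 and -0.30 for Gria3, neither called. Whether depth has a part in the low Gria4 level was not tested.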

How the results depend on the processing

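Neither Gria3 nor Gria4 was called for training under any of 25 alternatives (adjusted p from 0.973 and 0.982 upwards). Gria3 kept its direction in all of them, and Gria4 turned once, to 0.043 within numbers 3 and 4. The unadjusted edgeR p of Gria3 was 0.0240 with the block and without number 4, where 141 of 4086 genes were under 0.05. With the block and no filter it was 0.0413, where 386 of 13048 genes were under 0.05. Leaving out 1 library gave -0.48 to -0.18 for Gria3 and -0.41 to -0.00086 for Gria4. The mean Gria4 share ran from 60.9% to 64.1% untrained and from 61.8% to 67.7% trained over 6 alternatives of each group. Most of these left out 1 of the 4 libraries, which cannot move a mean by 1 SD, so they are no test of the share. Over all genes, the 0 calls for training became 2 with the replicate block, 6 with no filter and 18 with the block and no filter. With the block, 0 to 5 genes were called when both libraries of a number were left out. With the block and 20 UMIs in 4 libraries, or with the block in DESeq2, both chosen after seeing the data, 0 were called (128 and 35 at an unadjusted p under 0.05). The block changed no call of a subunit. For the replicate number, 654 genes became 184 in DESeq2 and 299 to 611 with a number left out, again chosen after seeing the data. The adjusted p of Gria4 there was 0.407 in DESeq2 and 0.0225 to 0.952 with a number left out, where it missed the threshold without number 2 or 4. The causes were not tested. Gria1 could be fitted only without the filter, where its adjusted p was 0.985 in edgeR, 0.998 with the block and 0.9997 in DESeq2 (unadjusted 0.0256, 0.114 and 0.156), and Gria2 not at all. Counts of 14 to 152 UMIs per library limit what Gria3 and Gria4 can show.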
